A study of Mus musculus with 24 samples.

Results

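Fucosyltransferases are the enzymes that attach fucose, a deoxy sugar, to glycans. Their genes were followed in retinas of P347S mice, a transgenic mouse line with a rhodopsin mutation in which rod photoreceptors die slowly. All probe sets whose transcript identifier maps to Fut1, Fut2, Fut4, Fut7, Fut8, Fut9, Fut10 or Fut11 were taken. They were 12 of the 1246 probe sets of a glycan-focused Affymetrix array: 3 for Fut4, 2 each for Fut2 and Fut10, and 1 for each of the other genes. The 24 arrays formed 8 groups of 3. RP mutant mice, which carry the P347S transgene (P347S+), were sampled at 1, 2, 3 and 4 months, and normal mice without it (P347S-) at the same ages. The labels give no strain, no promoter of the transgene, no agent and no treatment, and list the sex as unknown. Per the series' design text, loss of rods in these mice is hardly visible at 1 month and far advanced at 4 months. RNA came from retina as a whole, so fewer cells of a type and less RNA per cell cannot be told apart.

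Fucose is donated by GDP-fucose in the Golgi. Fut8 is the one enzyme that adds core fucose, joined to the innermost N-acetylglucosamine of an N-glycan. Terminal enzymes work on the outer ends of glycans: Fut1 and Fut2 make H antigens by fucosylating galactose, and Fut4, Fut7 and Fut9 fucosylate N-acetylglucosamine to form Lewis x or sialyl Lewis x. Lewis x made by Fut9 is known from neural cells, and sialyl Lewis x made by Fut7 is the ligand that lets leukocytes bind selectins. Fut10 and Fut11 resemble the Lewis enzymes in sequence, and their acceptors are less settled.

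Promoter windows of RefSeq (build GRCm38.p6), which run from 250 bases before to 50 after a start site, were matched for 5 of the 8 genes, with 9 entries. The most upstream entries of Fut8 and Fut7 are printed because these are the core gene that was higher and the Lewis gene that was lower in P347S retinas. The Fut8 window is chr12:77237854-77238153 on the plus strand and the Fut7 window is chr2:25422992-25423291 on the plus strand. Both windows begin inside the gene's coordinates, which start at chr12:77237430 and chr2:25422351, and no entry covered those starts. Capitals mark matches to GGGCGG or CCAAT on either strand, read 5′ to 3′.
Fut8: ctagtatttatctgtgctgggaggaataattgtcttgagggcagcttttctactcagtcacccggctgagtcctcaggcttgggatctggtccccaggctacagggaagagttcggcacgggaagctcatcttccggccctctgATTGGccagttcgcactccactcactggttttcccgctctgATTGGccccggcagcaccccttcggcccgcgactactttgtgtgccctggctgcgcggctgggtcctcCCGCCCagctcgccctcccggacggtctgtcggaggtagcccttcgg
Fut7: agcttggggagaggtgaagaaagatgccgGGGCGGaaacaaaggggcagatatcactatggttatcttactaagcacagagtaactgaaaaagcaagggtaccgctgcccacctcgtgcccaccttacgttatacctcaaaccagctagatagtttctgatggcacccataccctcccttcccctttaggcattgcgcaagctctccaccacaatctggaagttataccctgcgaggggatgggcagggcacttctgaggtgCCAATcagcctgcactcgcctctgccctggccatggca
The Fut8 window held 1 GGGCGG and 2 CCAAT matches, all on the reverse strand, and the Fut7 window held 1 of each on the forward strand. None of the matches overlapped another. Of all 32851 promoter windows in the table, 35.7% held GGGCGG and 37.4% held CCAAT. Another 4 motifs, searched on both strands, matched none of the 9 windows of these genes. Of all windows TATAAA matched 13.6%, the E-box CACGTG matched 7.15%, the AP-1 motif TGANTCA matched 7.81%, and the photoreceptor homeobox motif TAATCC matched 7.06%. The other Fut8 entries, the other Fut7 entry and the entries of Fut1, Fut4 and Fut11 are not shown. A match is a string of letters and was not measured as a binding site.

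Values are log2 signals between 1.9 and 14.17, and array medians ran from 5.15 to 5.34. Precision is limited by the 3 arrays in each group. Whether they stand for separate animals is not stated in the labels, so p-values cover the spread between these samples alone, which may be technical. A signal also depends on the probes, so levels were compared between groups within a probe set and never between genes. Genotypes were compared with limma over all 1246 probe sets, with Benjamini-Hochberg adjustment, and a probe set was called at an adjusted p under 0.05. Of the listed rod markers Gnb1 alone was measured, and no cone or bipolar cell marker was, so the tissue label was not checked against its defining genes. Grifin, a gene known from lens, read above 10 on 3 arrays, namely P347S 2 months replicate 2, normal 2 months replicate 2 and normal 4 months replicate 1, and results are given with and without them.

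Over the 4 ages Fut8 and Fut9 were higher in P347S retinas, and Fut7 and Fut2 were lower. Fut8 averaged 7.96 in P347S retinas and 7.71 in normal retinas, a difference of 0.25 ± 0.05 (SE, limma adjusted p = 0.00148), or 1.19-fold. Fut9 averaged 7.28 in P347S retinas and 6.99 in normal retinas, a difference of 0.29 ± 0.06 (limma adjusted p = 0.00236), or 1.22-fold. Fut7 averaged 5.22 in P347S retinas and 5.43 in normal retinas, a difference of -0.21 ± 0.05 (limma adjusted p = 0.00180). One Fut2 probe set averaged 3.78 in P347S retinas and 3.93 in normal retinas, a difference of -0.15 ± 0.04 (limma adjusted p = 0.0196). Of the 12 probe sets 2 were thus higher, 2 lower and 8 not called. That is 33.3% called, against 22.6% of all probe sets, 13.8% higher and 8.83% lower. In numbers, 172 of all probe sets were higher and 110 lower, or 161 and 157 after the arrays were quantile normalized again. At an unadjusted p under 0.05 stood 5 of the 12, against 35.6% of all. The median difference was -0.02 over the 12 probe sets and -0.03 over all 1246.

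**Figure D1:**
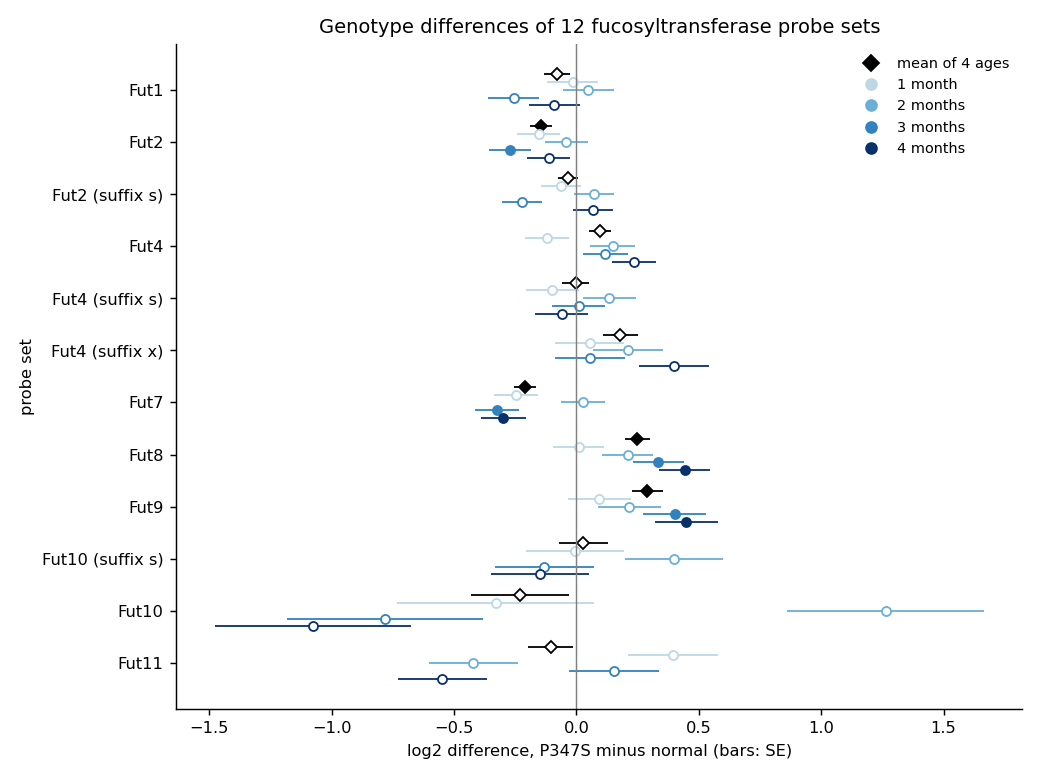
Difference in log2 signal, P347S minus normal (x axis), for the 12 fucosyltransferase probe sets (y axis), as the mean of 4 ages (diamonds) and at each age (circles), with bars for the SE. Filled symbols passed an adjusted p of 0.05. Fut8 and Fut9 lie right of 0 and Fut7 left of it for the mean of 4 ages, and Fut10 and Fut11 scatter to both sides.

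Fut8, the core enzyme (gene at chr12:77237430-77475998), was called higher at 3 and 4 months and not at 1 and 2 months. At 1 month it read 7.76, 7.70 and 7.96 in P347S retinas and 7.89, 7.76 and 7.74 in normal retinas. At 2 months it read 8.07, 7.68 and 7.73 in P347S retinas and 7.81, 7.55 and 7.50 in normal retinas. The genotypes overlapped at both of these ages. The labels name no pairs. At 2 months arrays with equal replicate numbers were correlated in their deviations from the group means, and both arrays numbered 2 had high Grifin. At that age the P347S array of each number read higher than the normal array of that number, by 0.27, 0.12 and 0.23. With the pairs as a block that difference was not called (limma adjusted p = 0.298). At 3 months it read 8.09, 8.26 and 8.02 in P347S retinas and 7.76, 7.68 and 7.93 in normal retinas. At 4 months it read 8.07, 8.08 and 8.14 in P347S retinas and 7.63, 7.63 and 7.70 in normal retinas. All 6 P347S arrays of 3 and 4 months lay above all 12 normal arrays. How many of all probe sets did so was not counted. At 3 and 4 months taken singly, the genotypes did not overlap in 32.6% and 30% of all probe sets. The differences were 0.01, 0.21, 0.33 and 0.44 from 1 to 4 months, each with an SE of 0.10. The difference passed at 3 months (limma adjusted p = 0.0413) and at 4 months (limma adjusted p = 0.00624). The change of the difference from 1 to 4 months, 0.43 ± 0.15, did not pass (limma adjusted p = 0.167), nor did the rise within P347S retinas between these ages (0.29, limma adjusted p = 0.150). In order of group means, P347S retinas of 3 months (8.12) and 4 months (8.10) stood 0.27 above the next group, more than the within-group SD of 0.13. P347S retinas of 2 and 1 months and normal retinas of 1 and 3 months followed between 7.83 and 7.79 with no gap beyond that spread, and normal retinas of 4 and 2 months were lowest at 7.65 and 7.62, after a gap of 0.14.

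Fut9, the Lewis x enzyme of neural tissue (chr4:25609333-25800003), was called higher at the same ages. At 3 months it read 7.30, 7.58 and 7.55 in P347S retinas and 6.94, 6.93 and 7.36 in normal retinas. At 4 months it read 7.38, 7.42 and 7.70 in P347S retinas and 6.95, 7.09 and 7.11 in normal retinas. The genotypes were separate at 4 months, as in 30% of all probe sets, and overlapped at 3 months, where normal replicate 3 was high. At the earlier ages they overlapped as well, though within the same-numbered pairs of 2 months P347S arrays read higher by 0.26, 0.08 and 0.30 (limma adjusted p = 0.362 with the pairs as a block). P347S retinas had 7.21, 6.996 and 7.39 at 1 month and 7.13, 6.76 and 6.91 at 2 months, against 7.11, 7.17 and 7.03 and then 6.87, 6.68 and 6.60 in normal retinas. Of the 6 P347S arrays of 3 and 4 months 5 lay above all 12 normal arrays, and the share of all probe sets that did so was not counted. The differences were 0.09, 0.22, 0.40 and 0.45 from 1 to 4 months, each with an SE of 0.13, and passed at 3 months (limma adjusted p = 0.0464) and 4 months (limma adjusted p = 0.0232). The change of the difference from 1 to 4 months was 0.35 ± 0.18 (limma adjusted p = 0.483). The top groups in order of means were P347S retinas of 4 months (7.50) and 3 months (7.48), 0.28 above the next one, with a within-group SD of 0.17. Normal retinas of 2 months were lowest at 6.72.

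**Figure D2:**
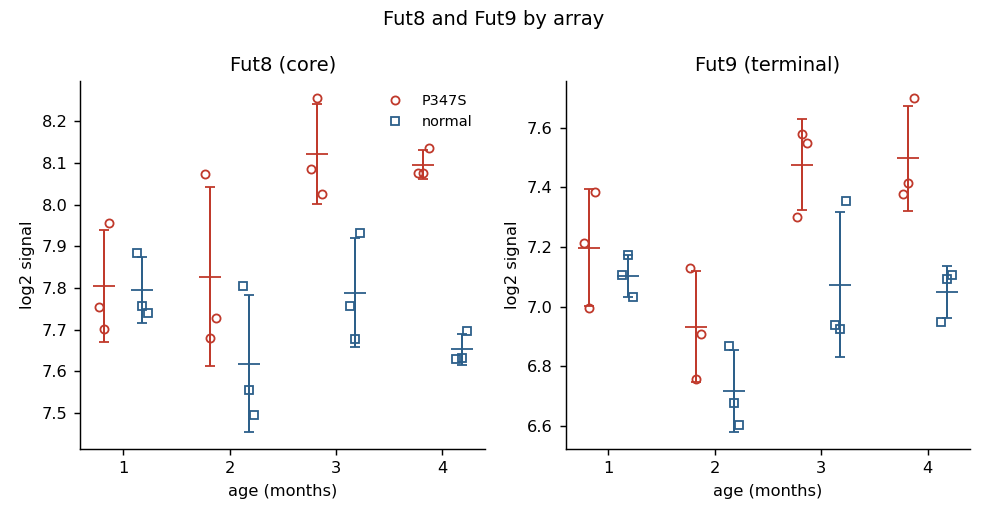
Log2 signal (y axis) of Fut8, the core enzyme, and Fut9, a terminal enzyme, by age in months (x axis) in P347S retinas (circles, left at each age) and normal retinas (squares, right), with 1 point per array and the mean and SD of 3 arrays as lines. All 6 P347S arrays of 3 and 4 months for Fut8, and 5 of these 6 for Fut9, lie above all 12 normal arrays. The share of all probe sets with such a separation was not counted.

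Fut7 (chr2:25422351-25426374), which completes sialyl Lewis x, was called lower at 3 and 4 months, and its groups did not overlap at 3 of the 4 ages. At 1 month it read 5.26, 5.18 and 5.14 in P347S retinas and 5.55, 5.38 and 5.39 in normal retinas. At 2 months it read 5.35, 5.19 and 5.49 in P347S retinas and 5.38, 5.18 and 5.40 in normal retinas, which overlapped. Between arrays of equal number at that age Fut7 differed by -0.03, 0.02 and 0.09. At 3 months it read 5.09, 5.18 and 5.16 in P347S retinas and 5.63, 5.47 and 5.31 in normal retinas. At 4 months it read 5.32, 5.11 and 5.14 in P347S retinas and 5.45, 5.49 and 5.52 in normal retinas. All P347S arrays lay below all normal arrays of the same age at 1, 3 and 4 months. At these ages 22.1%, 32.6% and 30% of all probe sets had no overlap between genotypes. The Fut7 differences were -0.25, 0.03, -0.32 and -0.30 from 1 to 4 months, each with an SE of 0.09. Those of 3 months (limma adjusted p = 0.0260) and 4 months (limma adjusted p = 0.0328) passed, and that of 1 month did not (limma adjusted p = 0.334). A test for any change of the difference with age did not pass either (moderated F test, limma adjusted p = 0.337).

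Fut4 (chr9:14748459-14752122), another Lewis x enzyme, best known from leukocytes, was not called by any of its 3 probe sets. Probe sets with the suffix s or x hold probes that other transcripts may share. The probe set without suffix had a low mean signal of 3.05, at the 11.4 percentile of all probe sets. The differences over the 4 ages were 0.10 ± 0.05 without suffix (limma adjusted p = 0.140), -0.004 with suffix s (limma adjusted p = 0.965) and 0.18 ± 0.07 with suffix x (limma adjusted p = 0.0759). At 4 months the probe set without suffix read 3.35, 3.20 and 3.17 in P347S retinas and 3.05, 3.00 and 2.96 in normal retinas. That with suffix x read 4.59, 4.32 and 4.19 in P347S retinas and 3.82, 4.07 and 4.01 in normal retinas. Both were separate at that age, as were 30% of all probe sets. Without suffix and with suffix x the differences were 0.24 and 0.40 (limma adjusted p = 0.103 and 0.0725), while suffix s gave -0.06. At 1 month the probe set without suffix lay the other way, at 2.98, 2.78 and 2.98 in P347S retinas and 3.00, 3.03 and 3.08 in normal retinas. The 3 probe sets thus disagreed, and the call for 2 of them turned on single arrays: without P347S 2 months replicate 3 the difference over the 4 ages passed without suffix (limma adjusted p = 0.0247) and with suffix x (0.0226), and suffix x also passed without P347S 3 months replicate 1 (0.0467) or normal 3 months replicate 3 (0.0410). At 4 months the probe set without suffix passed without P347S 2 months replicate 3 (0.0432), and suffix x passed without that array (0.0451), P347S 3 months replicate 3 (0.0494) or P347S 4 months replicate 3 (0.0449). Array weights gave a call over the 4 ages for suffix x (0.0488) and calls at 4 months for both probe sets (0.0281 without suffix, 0.0237 with suffix x).

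The H enzymes Fut1 and Fut2 lie close to each other on chromosome 7, at 7:45617606-45621059 and 7:45648591-45666394. The Fut2 probe set without suffix ranged from 3.64 to 3.94 (median 3.80) in P347S retinas and from 3.70 to 4.07 (median 3.92) in normal retinas. At 3 months it read 3.70, 3.83 and 3.66 in P347S retinas and 3.93, 4.01 and 4.07 in normal retinas, and at 1 month 3.77, 3.77 and 3.84 in P347S retinas and 4.05, 3.90 and 3.89 in normal retinas. The genotypes were separate at these ages and overlapped at 2 and 4 months. At 1 and 3 months 22.1% and 32.6% of all probe sets were separate. Between arrays of equal number at 2 months the Fut2 probe set without suffix differed by -0.19, -0.17 and 0.24. Its differences were -0.15, -0.04, -0.27 and -0.11 from 1 to 4 months, and that of 3 months passed (limma adjusted p = 0.0477). The second Fut2 probe set, with suffix s, differed by -0.04 over the 4 ages (limma adjusted p = 0.550). At 3 months its difference was -0.22 (limma adjusted p = 0.0791), and 0.0419 without normal 3 months replicate 3. The call of Fut2 over the 4 ages ended when each array was centred on its median (limma adjusted p = 0.0982), after quantile normalization (0.104), without the 3 arrays with high Grifin (0.0916) and with equal replicate numbers as a block (0.0550). It held with each single array left out (0.00419 to 0.0395). Fut1 ranged from 3.58 to 3.91 in P347S retinas and from 3.61 to 4.09 in normal retinas, and its difference over the 4 ages was -0.08 ± 0.05 (limma adjusted p = 0.288). The widest gap for Fut1 was -0.26 at 3 months (limma adjusted p = 0.108).

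**Figure D3:**
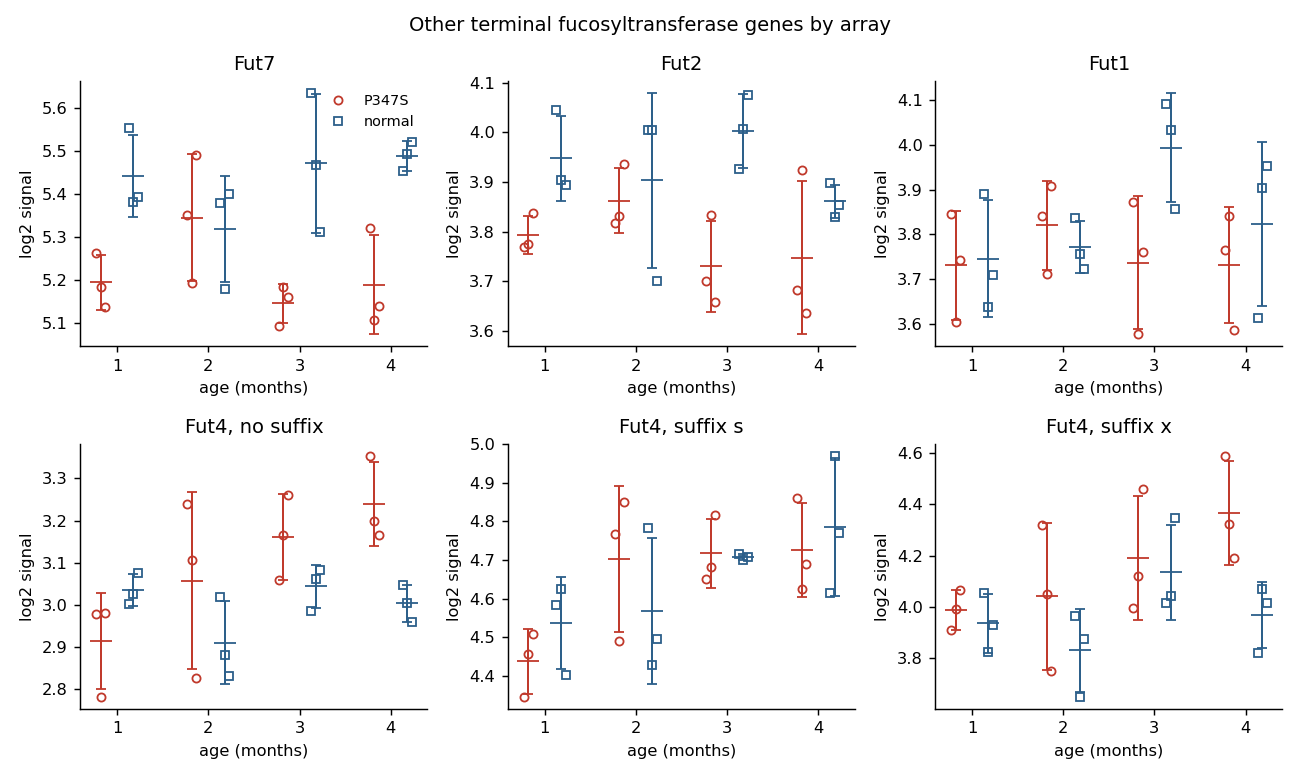
Log2 signal (y axis) of Fut7, Fut2 without suffix, Fut1 and the 3 Fut4 probe sets by age in months (x axis) in P347S retinas (circles, left at each age) and normal retinas (squares, right), with 1 point per array and the mean and SD of 3 arrays as lines. All P347S arrays of Fut7 lie below the normal arrays at 1, 3 and 4 months, and the 3 Fut4 panels differ from each other at 4 months. Of all probe sets 22.1%, 32.6% and 30% had no overlap between genotypes at 1, 3 and 4 months.

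Fut10 (chr8:31187313-31265284) and Fut11 (chr14:20694968-20700197) varied most within groups and were not called. Over the 4 ages Fut10 differed by -0.23 ± 0.20 without suffix (limma adjusted p = 0.426) and 0.03 ± 0.10 with suffix s (0.865), and Fut11 by -0.11 ± 0.09 (0.428). The within-group SD was 0.55 for the Fut10 probe set without suffix, 0.27 for that with suffix s and 0.25 for Fut11, against a median of 0.13 over all probe sets. Fut10 without suffix read 7.36, 6.31 and 7.28 in P347S retinas and 5.64, 5.67 and 5.85 in normal retinas at 2 months. At 4 months it read 6.57, 5.30 and 6.03 in P347S retinas and 7.01, 7.09 and 7.02 in normal retinas. The genotypes were separate at both ages, in opposite directions. No overlap was seen in 17.4% of all probe sets at 2 months and in 30% at 4 months. At 3 months normal replicate 2 stood apart: P347S retinas had 6.47, 6.40 and 5.57, and normal retinas 7.41, 5.69 and 7.69. The differences were -0.33, 1.26, -0.78 and -1.08 from 1 to 4 months, each with an SE of 0.40. None passed (limma adjusted p = 0.0822, 0.197 and 0.0874 from 2 to 4 months), and the moderated F test for a change with age gave a limma adjusted p of 0.122. Without normal 3 months replicate 2 alone, the differences of 2, 3 and 4 months passed (limma adjusted p = 0.0230, 0.0176 and 0.0211), as did the F test (0.0325), and that of 4 months also passed without P347S 4 months replicate 1 (0.0490), with array weights (0.0265) and after quantile normalization (0.0486). The Fut10 probe set with suffix s gave 0.00, 0.40, -0.13 and -0.15 at the 4 ages.

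Fut11 read 7.11, 7.19 and 7.03 in P347S retinas and 6.95, 6.89 and 6.31 in normal retinas at 1 month. At 2 months it read 6.39, 6.42 and 5.74 in P347S retinas and 6.46, 6.53 and 6.82 in normal retinas. At 4 months it read 6.29, 6.52 and 6.85 in P347S retinas and 7.10, 7.11 and 7.09 in normal retinas. All P347S arrays thus lay above the normal arrays at 1 month and below them at 2 and 4 months, and the genotypes overlapped at 3 months. No overlap was seen in 22.1%, 17.4% and 30% of all probe sets at 1, 2 and 4 months. The Fut11 differences were 0.39, -0.42, 0.15 and -0.55 from 1 to 4 months, each with an SE of 0.18. The difference at 4 months came closest to the threshold (limma adjusted p = 0.0538). It passed without P347S 2 months replicate 2 (0.0492) or replicate 3 (0.0246), P347S 3 months replicate 3 (0.0488), P347S 4 months replicate 3 (0.0202) or normal 1 month replicate 3 (0.0313). It also passed with array weights (0.00989), after quantile normalization (0.0264) and with probe sets under the 25th percentile (0.0463) or the median (0.0376) of signal left out. The change of the difference from 1 to 4 months was -0.94 ± 0.26 (limma adjusted p = 0.0980, and 0.0374 without P347S 4 months replicate 3).

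**Figure D4:**
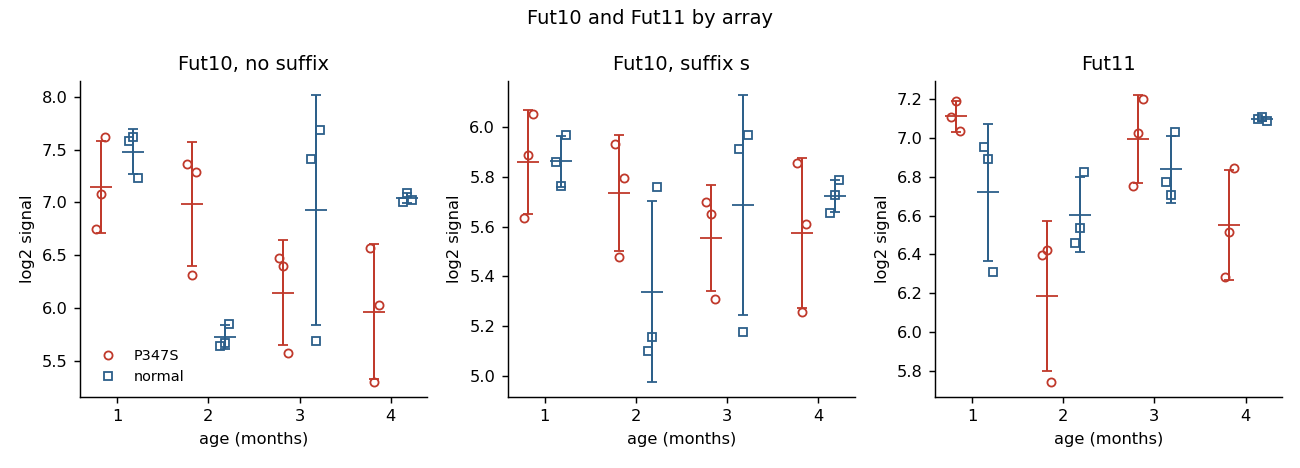
Log2 signal (y axis) of the 2 Fut10 probe sets and Fut11 by age in months (x axis) in P347S retinas (circles, left at each age) and normal retinas (squares, right), with 1 point per array and the mean and SD of 3 arrays as lines. The direction of the gap between genotypes differs between ages, and normal retinas of 3 months spread from 5.69 to 7.69 for Fut10 without suffix.

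Counted by age, none of the 12 probe sets was called by limma at 1 month, where 0.321% of all probe sets were, and 2 of the 12 had an unadjusted p under 0.05 (9.23% of all). None was called at 2 months, where 3.45% of all were, and again 2 of the 12 had an unadjusted p under 0.05 (14.4% of all). At 3 months 4 were called, or 33.3%, against 12% of all: 2 were higher (6.66% of all) and 2 lower (5.38% of all). At 4 months 3 were called, or 25%, against 12.9% of all: 2 were higher (9.47% of all) and 1 lower (3.45% of all). Probe sets without overlap between genotypes were 4 at 1 month (22.1% of all probe sets), 2 at 2 months (17.4%), 4 at 3 months (32.6%) and 7 at 4 months (30% of all). With 3 arrays against 3, an exact permutation test of 1 probe set cannot go below p = 0.1, and the calls at single ages use the spread that limma pools over all groups. No member was called by limma's F test for a change of the difference with age (0.321% of all called), and 4 of the 12 had an unadjusted p under 0.05 (14.4% of all). For the change of the difference from 1 to 4 months none was called (0.241% of all called) and 3 had an unadjusted p under 0.05 (11.4% of all). From 1 to 4 months within P347S retinas none was called (2.65% of all called) and 7 had an unadjusted p under 0.05 (15.1% of all). Within normal retinas none was called (0% of all called) and 1 had an unadjusted p under 0.05 (7.38% of all). With array weights limma called 1 member by the F test, 3 for the change from 1 to 4 months, 4 within P347S retinas and none within normal retinas.

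Of the calls at single ages, only that of Fut8 at 4 months held with each array left out. Fut8 at 3 months was lost without P347S 1 month replicate 1 (limma adjusted p = 0.0510), P347S 3 months replicate 1 (0.0575), replicate 2 (0.171) or replicate 3 (0.0581), or normal 3 months replicate 1 (0.111) or replicate 2 (0.160). At 4 months Fut8 gave 0.00281 to 0.0246. Fut9 at 3 months was lost without any 1 of 13 arrays (0.0505 to 0.182), namely P347S 1 month replicate 1, P347S 3 months replicates 2 and 3, P347S 4 months replicate 2, all 3 of normal 1 month, normal 2 months replicate 2, normal 3 months replicates 1 and 2 and all 3 of normal 4 months. At 4 months Fut9 was lost without P347S 4 months replicate 3 (0.114) or normal 4 months replicate 1 (0.0964). Fut7 at 3 months was lost without any of the 3 P347S arrays of that age (0.0520 to 0.0636) or normal 3 months replicate 1 (0.119) or 2 (0.0665). At 4 months Fut7 was lost without P347S replicate 2 (0.130) or 3 (0.0920) of that age or any of its 3 normal arrays (0.0591 to 0.109). Fut2 at 3 months was lost without any 1 of 17 arrays (0.0504 to 0.152): all but P347S 2 months replicate 3, the 3 of P347S 4 months and the 3 of normal 2 months. Over the 4 ages Fut7, Fut8 and Fut9 passed with each array left out, with limma adjusted p-values up to 0.00461 for Fut7, 0.00366 for Fut8 and 0.00605 for Fut9.

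Core and terminal fucosylation were set side by side by taking, on each array, the log2 signal of Fut8 minus the mean of Fut1, Fut2, Fut4, Fut7 and Fut9, with the probe set of highest mean for each gene. For Fut4 that is the one with suffix s, which differed by -0.004, and when every probe set of a terminal gene was averaged the shift over the 4 ages was 0.25 in place of 0.28. Fut1 and Fut2, which enter the mean, have mean signals at the 24.0 and 25.8 percentiles of all probe sets. The value of this measure has no meaning by itself, and only its shift between genotypes is described, with no test. It averaged 2.93 ± 0.09, 2.89 ± 0.19, 3.16 ± 0.12 and 3.12 ± 0.06 in P347S retinas from 1 to 4 months. In normal retinas it averaged 2.84 ± 0.02, 2.76 ± 0.06, 2.74 ± 0.12 and 2.65 ± 0.07 (SD, n = 3 each). From 1 to 4 months the genotypes were apart by 0.09, 0.13, 0.42 and 0.47 on this measure. The genotypes overlapped at 2 months only, and how often such a measure of other genes separates was not counted. The mean of the terminal genes shifted by -0.08, 0.08, -0.09 and -0.02 at these ages, and Fut8 alone by 0.01, 0.21, 0.33 and 0.44. The terminal genes did not move as one: Fut8 minus Fut9 shifted by -0.04 on average over the 4 ages, and Fut8 minus Fut7 by 0.46.

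**Figure D5:**
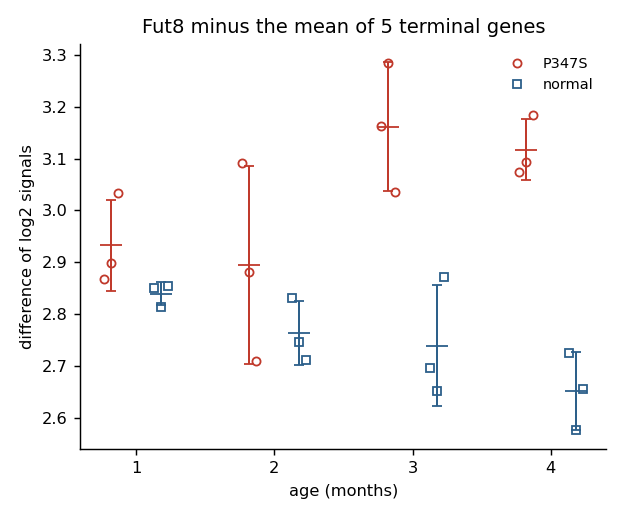
Log2 signal of Fut8 minus the mean log2 signal of 5 terminal genes (y axis) by age in months (x axis) in P347S retinas (circles, left at each age) and normal retinas (squares, right), with 1 point per array and the mean and SD of 3 arrays as lines. The P347S arrays of 3 and 4 months lie between 3.04 and 3.29, above all normal arrays, the highest of which is at 2.87. How often such a measure of other genes separates in this way was not counted.

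Genes that feed, precede or read fucosylation were counted over the 4 ages in lists, against 22.6% of all probe sets called. For GDP-fucose synthesis and transport 5 of 6 genes were measured, with 1 higher and 1 lower. Gmds, the first enzyme of the synthesis from GDP-mannose, was higher (0.18 ± 0.05, limma adjusted p = 0.0119), and Gfus, which catalyses the following steps, was lower (-0.18 ± 0.06, limma adjusted p = 0.0247, and 0.0509 without normal 1 month replicate 3). The Golgi transporter Slc35c1 read 0.10 ± 0.06 (limma adjusted p = 0.263). Of 5 measured genes for O-linked fucose on proteins, Pofut1, which fucosylates Notch, was lower (-0.18 ± 0.06, limma adjusted p = 0.0261), and the other 4 were not called. The Pofut1 call was lost without P347S 1 month replicate 1, P347S 3 months replicate 1, normal 1 month replicate 3, normal 3 months replicate 1 or normal 4 months replicate 2 (0.0503 to 0.0530). It was also lost with arrays centred on their median (0.0717), and the calls of Pofut1 (0.0725) and Gfus (0.0629) were lost without the 3 arrays with high Grifin. Quantile normalization ended that of Gmds (0.175). The fucosidases Fuca1 and Fuca2 were not measured under a matched name.

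Among genes that trim or branch N-glycans, only some of which make the acceptor of Fut8, 10 of 14 were measured, 2 were higher and 2 lower. The Golgi mannosidase Man2a2 (-0.71 ± 0.12, limma adjusted p = 0.000226) and Mgat1 (-0.30 ± 0.08, limma adjusted p = 0.0126), whose product is the substrate of Fut8, were lower. Man2a1 (0.28 ± 0.07, limma adjusted p = 0.00467) and Mgat4c (0.28 ± 0.04, limma adjusted p = 5.81e-05) were higher, the first of them not after quantile normalization (0.129). Mgat4c had a mean signal of 3.79, under the 25th percentile of all probe sets, 3.83. Among genes listed for the lactosamine and type 1 chains on which terminal enzymes act, only some of which build these chains, 18 of 19 were measured. Of these 8 were higher and 2 lower. The lactosamine extender B3gnt2 (0.56 ± 0.07, limma adjusted p = 4.19e-06), B3galt1 (0.54 ± 0.06, limma adjusted p = 9.71e-07) and the galactosyltransferase B4galt5 (0.44 ± 0.06, limma adjusted p = 1.83e-05) were higher, and B4galt1 (-0.36 ± 0.05, limma adjusted p = 1.10e-05) was lower. The B3gnt2 and B3galt1 probe sets carry the suffixes s and x, and a B3galt1 probe set without suffix read 0.49. Gcnt1, also higher, rests on a probe set with suffix s (0.24), and its probe set without suffix read -0.03 (limma adjusted p = 0.658). The other lower gene, B4galt3 (-0.17, limma adjusted p = 0.0372), was lost without the 3 arrays with high Grifin (0.0890) and without any 1 of 11 arrays (0.0546 to 0.0745), namely P347S 1 month replicates 1 and 3, P347S 2 months replicates 1 and 2, P347S 3 months replicate 2, P347S 4 months replicate 3, normal 1 month replicate 3, normal 2 months replicate 3, normal 3 months replicate 1 and normal 4 months replicates 2 and 3. The median difference was 0.06 for each of these lists. Of the 3 sialyltransferases that prepare sialyl Lewis x for Fut7, St3gal4 (suffix s, 0.32 ± 0.07, limma adjusted p = 0.00134) and St3gal6 (0.35 ± 0.08, limma adjusted p = 0.00170) were higher, and St3gal3 read 0.11 ± 0.09 (limma adjusted p = 0.378). These differences have the opposite sign to that of Fut7.

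Of 14 lectins that bind fucosylated glycans none was higher and 2 were lower, Cd207 (-0.16, limma adjusted p = 0.0287) and a Cd209b probe set with suffix s (-0.15, limma adjusted p = 0.0385). A second Cd209b probe set, with suffix a, read -0.08 (limma adjusted p = 0.186). Both calls were lost without the 3 arrays with high Grifin (0.0914 and 0.0964), and that of Cd209b with arrays centred (0.0612), after quantile normalization (0.0660) and with the replicate block (0.0735). Leaving out 1 array moved this count to between 0 and 4. It stayed at 2 without P347S 3 months replicate 3, P347S 4 months replicate 1, normal 3 months replicate 3 or normal 4 months replicate 2, and changed without any other array.

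Markers of other cells differed between the same groups over the 4 ages, where 13.8% of all probe sets were higher and 8.83% lower. Of 6 measured of 13 microglia and macrophage markers 4 were higher (Csf1r, Cx3cr1, Adgre1 and Siglech). Summed over all 6, uncalled Mrc1 and Lgals3 included, linear signal was 495 to 967 in P347S arrays and 365 to 617 in normal arrays. Of 5 measured of 11 markers of reactive Müller glia and astrocytes 4 were higher (Vcam1, Icam1, Cd44 and Fgf2). Sums over all 5, uncalled Lgals1 included, were 788 to 1744 in P347S arrays and 532 to 1465 in normal arrays. Of 4 measured of 8 endothelium and pericyte markers 2 were higher, Mcam (0.34, limma adjusted p = 0.000175) and Cd34 (0.32, limma adjusted p = 0.00282). Sums over all 4, uncalled Pecam1 and Pdgfrb included, were 147 to 236 in P347S arrays and 142 to 182 in normal arrays. Gfap, Vim, Glul and Rlbp1 were not measured under a matched name. The rod marker Gnb1 (suffix s) was lower (-0.21 ± 0.06, limma adjusted p = 0.0121, 0.226 after quantile normalization and 0.0503 without the 3 arrays with high Grifin). The part of these cells in the results for Fut8, Fut9, Fut7 and Fut2 was not tested. On the 3 arrays with high Grifin, Fut8 read 7.55 to 7.68 and Fut9 6.68 to 6.95, and on the other 21 arrays 7.50 to 8.26 and 6.60 to 7.70. Without these arrays the difference over the 4 ages was 0.26 for Fut8 (limma adjusted p = 0.00457), 0.29 for Fut9 (0.00710) and -0.21 for Fut7 (0.00349). At single ages Fut8 at 3 months (0.0502), Fut9 at 3 months (0.0536) and 4 months (0.0977) and Fut2 at 3 months (0.0632) were not called without them.

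Across the 24 arrays, which share the 8 groups and the source of each RNA, the named genes whose log2 signals ran closest to Fut8 were Cmas (Pearson r = 0.87), Fut9 (0.87) and a probe set of Ugcg with suffix s (0.86). For Fut9 they were Igf1 (0.95), Ptprz1 (0.90) and Fgf13 (0.89). For Fut7 they were Siglec15 (0.76), St3gal1 (0.75) and Siglece (0.73), and for Fut2 Sdc3 (0.72), Fcrlb (0.65) and Wnt9b (0.64). Cmas, which activates sialic acid, differed between genotypes by 0.13 ± 0.04 and Ugcg, which starts glucosylceramide-based glycolipids, by 0.28 ± 0.05. The growth factor Igf1 differed by 0.27 ± 0.06. The genes nearest to Fut10 and Fut11 were looked up after their values were seen: Galnt7 (0.91) and Magi2 (0.83) stood closest to Fut11, and C1galt1c1 (0.68) and Nmt1 (0.67) to Fut10 without suffix.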

How the data were processed

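Values are log2 signals that the authors deposited in the series' value table, made with RMA per the submitters' processing notes, which give the name only. Its version, its filters and which arrays went through it together are not given in the sources used here. Per the labels' protocols, total RNA was extracted with Trizol and turned into biotinylated cRNA. Nothing was scaled again, and all 1246 probe sets were kept. Gene names came from the transcript identifier in each probe set name, matched to RefSeq genes of GRCm38.p6, whose coordinates are printed: 963 probe sets matched 909 genes and 283 stayed unnamed. For a list gene with several probe sets the one with the highest mean was used.

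In R 4.3.3 with limma 3.58.1 all 24 arrays entered 1 linear model with 8 group means (lmFit, eBayes, 16 residual and 4.37 prior degrees of freedom). Within a contrast, 2-sided p-values were adjusted by Benjamini-Hochberg over 1246 probe sets. The fit was tested on simulated data with independent errors and differences equal at every age, for the difference over the 4 ages alone. That test did not cover the other contrasts or correlated arrays. Named genes were all members, up to 4 called genes of a list by smallest p, and the 3 genes most correlated with each called member. Where a count was small, genes outside this rule were named after their values were seen, Slc35c1 and St3gal3 among them. The members, lists and tests were chosen with earlier results of these data known.

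Alternatives were arrays centred on their median, quantile normalization, probe sets under log2 3.83 or 5.26 left out, an intensity trend, robust eBayes, array weights, a replicate block, no high Grifin arrays, Grifin and Dcn as covariates, 6 arrays of an age alone, an adjusted p under 0.01, and each array left out. At 2 months the correlation of deviations from the group means, over probe sets, between arrays of equal replicate number was 0.33, 0.66 and 0.25. The value of 0.66 belongs to the arrays numbered 2, both with high Grifin. In the other 9 of 12 same-numbered pairs the correlation ran from -0.03 to 0.08. The labels name no pairs, and the cause of the correlation at 2 months was not tested.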

Additional observations from a re-analysis of the deposited data

Results flagged for a closer look

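The Fut10 probe set without suffix differed between P347S and normal retinas by 1.26 at 2 months and by -1.08 at 4 months, with no overlap between genotypes at either age. The Fut10 probe set with suffix s overlapped at both ages, with differences of 0.40 and -0.15. Fut11 differed by 0.39 at 1 month and by -0.42 at 2 months, again with no overlap. Of all probe sets 22.1% had no overlap at 1 month, 17.4% at 2 months and 30% at 4 months. The genotype differences of both genes thus pointed in opposite ways at these ages, and the difference between the ages of each pair was not tested by itself. The moderated F test over all ages gave limma adjusted p-values of 0.122 for Fut10 without suffix and 0.148 for Fut11. Fut10 without suffix and Fut11 both lay above the 92nd percentile of all in within-group SD.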

How the results depend on the processing

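The count of called fucosyltransferase probe sets over the 4 ages, 4, stayed between 3 and 5 under 11 other settings and between 4 and 6 with each array left out, and the core against terminal shift of 0.28 stayed between 0.22 and 0.32. With equal replicate numbers as a block, the difference over the 4 ages was 0.25 for Fut8 (limma adjusted p = 0.00220) and -0.15 for Fut2 (0.0550), and Fut2 at 3 months was not called (0.0992), while Fut4 with suffix x at 4 months was (0.0491). At 3 months the count of 4 was 1 with arrays centred, 1 after quantile normalization, 2 with an intensity trend, 0 with array weights, 1 without the high Grifin arrays, 2 with Grifin and Dcn as covariates and 0 with the 6 arrays alone. With array weights the count was 1 at 1 month, 7 at 4 months, 3 for the change from 1 to 4 months, 4 for age within P347S retinas and 1 for the F test, and that for age within P347S retinas was 1 with an intensity trend and 1 with covariates. With each array left out the count ran from 0 to 1 at 2 months, 0 to 4 at 3 months, 1 to 6 at 4 months, and 0 to 1 for the change from 1 to 4 months, age within P347S retinas and the F test. Quantile normalization also ended the 4-month calls of Fut8 (0.0965) and Fut9 (0.135). In 3651 comparisons of single probe sets 3528 kept their side of the threshold, 79 lost a call, 44 gained one and none of those called changed sign. Most of these comparisons were of differences not called in the main fit, so the share kept does not measure how firm the calls were. At 3 months other settings ended the call of Fut2 in 7 of 10, Fut9 in 7 of 11, Fut8 in 6 of 11 and Fut7 in 2 of 11. Over the 4 ages Fut7, Fut8 and Fut9 kept theirs in all 11. The cause of these changes was not tested.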
